A study of Mus musculus with 8 samples.

Results

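Signals of 8 genes were followed across 2 mouse cell lines that did or did not carry a PGC7 transgene. The genes were the transcription factors Snai1, Snai2, Twist1, Twist2, Zeb1, Zeb2 and Prrx1, which are associated with epithelial to mesenchymal transition (EMT), and Vim, which encodes the intermediate filament protein vimentin. They were taken by symbol, with every probe set annotated to that symbol alone, which gave 8 of 18194 genes and 23 of 45101 probe sets on the array. A probe set is a group of short probes against one transcript region. Of the 23 probe sets, 20 passed a filter on low signal and were tested. The other 3 (Zeb1 1420243_at and 1446127_at, and Prrx1 1458004_at) did not pass it and were not tested.

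PGC7, also called Stella and encoded by Dppa3, is a small nuclear protein known from the germ line and the early embryo. It was overexpressed by viral infection in NIH3T3, a mouse embryonic fibroblast line, and in B16F10, a mouse melanoma line. RNA was hybridised to 8 Affymetrix arrays. NIH3T3 had 1 control array and 3 arrays labelled PGC7 (clone 1, clone 2 and the culture before cloning, here called uncloned), and B16F10 had 1 control array and 3 arrays labelled PGC7 (clones 1, 2 and 3). The genotype field of all 6 PGC7 arrays reads PGC8/Stella and pre-cloned, whereas their titles read PGC7 and, except for the uncloned culture, name a clone. Both lines were grown in the same medium with serum, and all samples carry the same note on overnight exposure to virus with polybrene. The sources used here do not say whether the controls received an empty vector. Each clone is a line grown from a single cell, so a value for a clone is a value for 1 lineage. Nothing in the labels gives repeated cultures of one clone, and p-values below measure only the spread between these arrays.

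The EMT factors are DNA-binding repressors and activators that switch epithelial cells toward a motile, fibroblast-like state in development, wound repair and tumour spread. SNAI and ZEB zinc-finger proteins bind E-box sequences and repress E-cadherin and other junction genes, the basic helix-loop-helix TWIST proteins bind related E-boxes as dimers, and the homeodomain protein PRRX1 marks limb and craniofacial mesenchyme. Fibroblasts express many of these factors in the absence of any transition. Melanocytes arise from the neural crest and express Zeb2 and Snai2 in normal development, and in melanoma a shift from ZEB2 and SNAI2 toward ZEB1 and TWIST1 has been described.

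Promoter windows were available in RefSeq (build GRCm38.p6) for 6 of the 8 genes, as 300-base windows from 250 bases before to 50 bases after a transcription start. The windows of the following 3 genes are printed because they stand for different patterns in the arrays. Snai1 and Twist2 gave signal in NIH3T3 and almost none in B16F10, and Zeb2 gave more signal in B16F10. The Snai1 window is chr2:167537945-167538244 (plus strand) and the Twist2 window chr1:91801211-91801510 (plus strand). Zeb2 had several windows, and the one printed, at the annotated gene start, is chr2:45117393-45117692 (minus strand). Capitals mark the E-box searched, CAGGTG or its reverse complement CACCTG.
Snai1: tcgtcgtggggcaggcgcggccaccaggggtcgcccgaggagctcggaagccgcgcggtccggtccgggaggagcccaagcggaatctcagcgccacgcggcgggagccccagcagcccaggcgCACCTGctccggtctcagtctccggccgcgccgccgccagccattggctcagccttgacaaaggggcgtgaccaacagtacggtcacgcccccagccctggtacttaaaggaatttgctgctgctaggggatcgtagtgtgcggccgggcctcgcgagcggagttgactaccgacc
Twist2: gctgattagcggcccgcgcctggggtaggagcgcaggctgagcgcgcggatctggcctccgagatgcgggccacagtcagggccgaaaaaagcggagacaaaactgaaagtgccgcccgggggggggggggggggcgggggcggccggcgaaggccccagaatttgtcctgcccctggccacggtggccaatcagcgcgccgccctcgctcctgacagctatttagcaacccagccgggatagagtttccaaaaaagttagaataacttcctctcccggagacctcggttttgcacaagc
Zeb2: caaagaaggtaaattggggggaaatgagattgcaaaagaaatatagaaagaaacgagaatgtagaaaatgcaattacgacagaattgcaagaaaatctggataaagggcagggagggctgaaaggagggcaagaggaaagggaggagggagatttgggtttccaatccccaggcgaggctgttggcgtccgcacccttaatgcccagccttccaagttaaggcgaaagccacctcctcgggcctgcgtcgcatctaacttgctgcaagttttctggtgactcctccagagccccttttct

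The E-box occurred in 1 of the 9 windows of the 6 genes, that of Snai1, with its first base at position -126 from the start. Some of the 9 are windows of Zeb2 that overlap. It occurred in 20.2% of all 32851 windows of the same length. The Snai1 window was 70% G or C with 34 CpG dinucleotides, and the Twist2 window was 64.67% G or C with 25. The printed Zeb2 window was 49.33% G or C with 9 CpG dinucleotides, against medians of 52.67% and 7 over all windows. The further Zeb2 windows were at 52.67% to 60.67% with 8 to 19. Of the genes not printed, Twist1 stood at 66% with 27, Vim at 59.33% with 11 and Prrx1 at 47.67% with 6. These are descriptions of the letters in the windows, and no binding or methylation was measured.

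All signals below are on a common scale on which the trimmed mean of each array is 500, and differences are in log2(signal + 9) from a limma fit of the 4 groups across 25236 probe sets. A probe set was called when its Benjamini-Hochberg adjusted p was under 0.05. Since each line had 1 control array, the spread came from the PGC7 arrays, and the spread between control cultures was not measured. Adding a pseudocount of 9 understates the change of low signals. The median of all signals was 49.3, and signals under it were not ranked.

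The arrays carried the markers of their labelled lines. The summed signal of 10 fibroblast genes was 133618 in the NIH3T3 control and 80701 to 89157 in the NIH3T3 PGC7 arrays, against 632 to 940 in B16F10. The summed signal of 12 melanocyte genes was 133198 to 173418 in B16F10 and 970 to 2439 in NIH3T3. Dppa3 did not separate PGC7 arrays from controls in NIH3T3 (69.8 in the control and 29.7, 55.4 and 101 in clone 1, clone 2 and the uncloned culture). In B16F10 it read 23.5 in the control and 70.0, 117 and 71.0 in clones 1 to 3, and neither difference was called (limma, adjusted p = 0.802 and 0.27). The group names therefore rest on the labels alone, and the sources used here do not say whether this probe set reads the transgene. In bulk RNA, fewer cells that express a gene and less RNA per cell cannot be told apart.

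Snai2 was the one gene of the 8 whose signal in the arrays labelled PGC7 had a called difference from control. In NIH3T3 both Snai2 probe sets were called lower and no other probe set of the 8 genes was called. The counts were thus 0 of 20 called higher and 2 of 20 called lower. Among all tested probe sets 6.47% were called higher and 6.32% lower. In B16F10 none of the 20 was called by limma, beside 1.19% of all tested probe sets. At an unadjusted p under 0.05 there were 4 of the 20. The share of all tested probe sets at that threshold was not counted, so nothing is read from the 4. The median difference of the 20 probe sets was 0.01 in NIH3T3 and 0.04 in B16F10, beside -0.07 and 0.02 over all tested probe sets. In NIH3T3 all 3 PGC7 arrays lay above the control for 9 of the 20 probe sets and below it for 7, beside 28.9% and 38.3% of all tested probe sets. In B16F10 the counts were 6 above and 5 below, beside 37.0% and 32.2%.

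**Figure D1:**
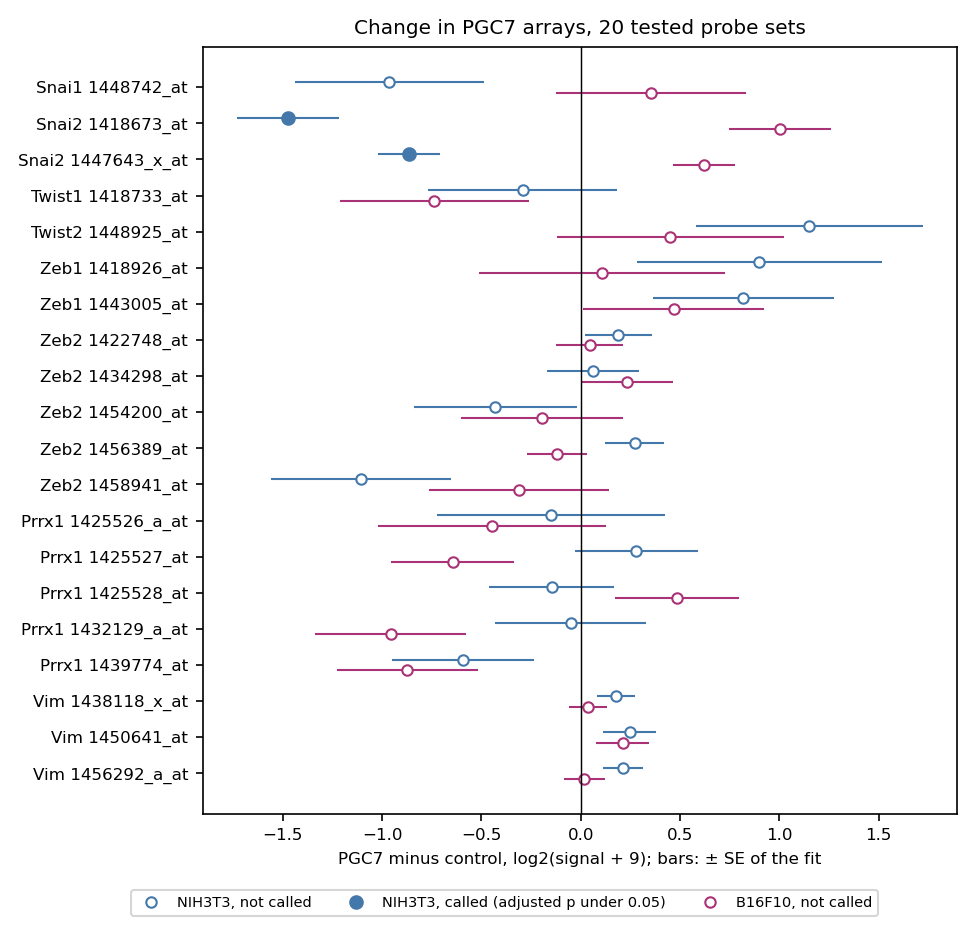
Difference of the 3 PGC7 arrays from the control in log2(signal + 9) for each of the 20 tested probe sets in NIH3T3 (blue) and B16F10 (purple), with bars for the standard error of the limma fit and filled points where a difference was called. The 2 Snai2 probe sets are the filled points, at -1.47 and -0.86 in NIH3T3, and lie at 1.00 and 0.62 in B16F10 without a call.

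Snai2 (Slug) encodes a zinc-finger repressor of E-cadherin that is needed for melanocyte development. Its probe set 1418673_at read 2262 in the NIH3T3 control and 789 in clone 1, 733 in clone 2 and 916 in the uncloned culture. The same probe set read 69.7 in the B16F10 control and 183, 149 and 121 in clones 1 to 3. All 3 PGC7 arrays thus lay below the control in NIH3T3 and above it in B16F10, and the lines did not overlap. The PGC7 mean was 813 ± 93.6 in NIH3T3 and 151 ± 30.9 in B16F10 (SD, n = 3 each).

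On the log2 scale Snai2 1418673_at fell by 1.47 ± 0.26 (SE) in NIH3T3, a 2.78-fold lower level (limma, adjusted p = 0.00831). The difference was 1.00 ± 0.26 in B16F10 and was not called (adjusted p = 0.111). The change differed between the lines by -2.48 ± 0.36 (NIH3T3 minus B16F10, limma interaction contrast, adjusted p = 0.00768). For this contrast 0 of 20 probe sets were called higher and 2 of 20 lower, beside 3.08% and 3.8% of all tested probe sets. Leaving out the uncloned NIH3T3 culture brought the B16F10 difference to an adjusted p of 0.0417, over a range of 0.0417 to 0.305 in 14 alternatives. That array also set the background, since 1835 probe sets were called in B16F10 without it and 300 with it.

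The other Snai2 probe set, 1447643_x_at, has the suffix that Affymetrix gives to probe sets that may cross-hybridise, and no transcript accession in the annotation. It read 8445 in the NIH3T3 control and 5100, 4696 and 4165 in clone 1, clone 2 and the uncloned culture. The B16F10 control read 316 and clones 1 to 3 read 536, 476 and 460. As for 1418673_at, all 3 PGC7 arrays lay below the control in NIH3T3 and above it in B16F10, but among the NIH3T3 arrays the uncloned culture was the lowest here and the highest there. It fell by 0.86 ± 0.16 in NIH3T3 (limma, adjusted p = 0.00977), and its difference of 0.62 ± 0.16 in B16F10 was not called (adjusted p = 0.108, and 0.0231 without the uncloned NIH3T3 culture). The change differed between the lines by -1.48 ± 0.22 (adjusted p = 0.00814). When arrays were scaled on the poly-A spike controls, both calls of this probe set were lost (-0.54, adjusted p = 0.256, and -0.67, adjusted p = 0.246), whereas those of 1418673_at were kept.

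**Figure D2:**
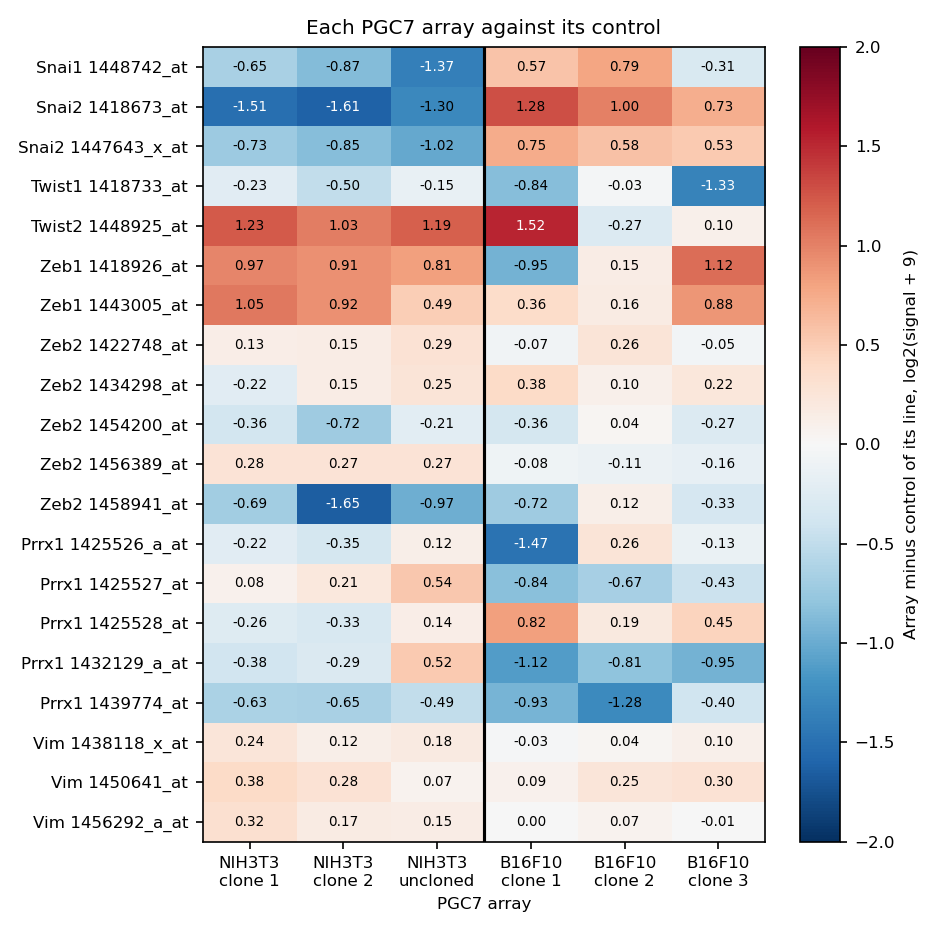
Heat map of the difference of each PGC7 array from the control of its line in log2(signal + 9), with 1 row a tested probe set, 1 column an array, and the value printed in each cell (blue below 0, red above 0). Snai2 1418673_at lies between -1.61 and -1.30 in NIH3T3 and between 0.73 and 1.28 in B16F10, and Twist2 lies between 1.03 and 1.23 in NIH3T3.

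Snai1 (Snail), the paralogue of Snai2 and the repressor first linked to loss of E-cadherin, has 1 probe set on the array, 1448742_at. It read 1661 in the NIH3T3 control and 1056, 904 and 639 in clone 1, clone 2 and the uncloned culture. In B16F10 it read 3.76 in the control and 9.98, 13.1 and 1.31 in clones 1 to 3, all under the median of all signals. All 3 NIH3T3 PGC7 arrays lay below the control, with the uncloned culture the lowest. The difference of -0.96 ± 0.48 in NIH3T3 was not called (limma, adjusted p = 0.225), nor under any of 14 alternatives (0.0772 to 0.554), and its 95% interval ran from -2.05 to 0.13. In B16F10 the difference was 0.35 ± 0.48 (adjusted p = 0.79).

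The TWIST proteins are basic helix-loop-helix factors of mesoderm and dermis. Twist1 1418733_at read 970 in the NIH3T3 control and 824, 686 and 876 in clone 1, clone 2 and the uncloned culture. The B16F10 control read 16.4 and its clones 5.13, 15.8 and 1.07. All 3 PGC7 arrays lay below the control in each line, by small amounts in NIH3T3 and at low signal in B16F10. Neither difference was called (-0.29 ± 0.48 with adjusted p = 0.738, and -0.74 ± 0.48 with adjusted p = 0.525, limma).

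Twist2 (Dermo1) 1448925_at read 2773 in the NIH3T3 control and 6507, 5667 and 6347 in clone 1, clone 2 and the uncloned culture. In B16F10 it read 4.17 in the control and 28.9, 1.88 and 5.15 in clones 1 to 3. The 3 NIH3T3 PGC7 arrays lay close to one another (mean 6174 ± 446, SD, n = 3) and well above the control. The difference was 1.15 ± 0.57 in the fit of all arrays and was not called (limma, adjusted p = 0.227). It was called when NIH3T3 arrays were fitted alone (adjusted p = 0.0175) and without B16F10 clone 1 (0.0341), the one B16F10 array with a signal above 10. It was also called with a pseudocount of 32 (0.0381) and under spike scaling (0.0495), and the 14 alternatives ranged from 0.0175 to 0.523.

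ZEB1 and ZEB2 are large proteins with zinc-finger clusters at both ends that repress E-cadherin and are themselves held down by the miR-200 family in epithelia. Zeb1 1418926_at read 1986 in the NIH3T3 control and 3897, 3752 and 3497 in clone 1, clone 2 and the uncloned culture. In B16F10 it read 13.9 in the control and 2.88, 16.5 and 40.9 in clones 1 to 3. All 3 NIH3T3 PGC7 arrays lay above the control, and the B16F10 arrays lay on both sides of theirs. The NIH3T3 difference of 0.90 ± 0.62 was not called (limma, adjusted p = 0.384), and was called in 1 of 14 alternatives, with NIH3T3 arrays fitted alone (0.0329).

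A further Zeb1 probe set, 1443005_at, read 144 in the NIH3T3 control and 308, 279 and 205 in the PGC7 arrays in the same order. It too lay above the control in all 3, with a difference of 0.82 ± 0.45 that was not called (limma, adjusted p = 0.278). The 2 Zeb1 probe sets that were not tested read 0.992 to 70.9 in NIH3T3 and 0.640 to 3.84 in B16F10.

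Zeb2 1422748_at was the one representative probe set with more signal in B16F10. It read 2028 in the B16F10 control and 1931, 2422 and 1957 in clones 1 to 3. In NIH3T3 it read 610 in the control and 666, 677 and 747 in clone 1, clone 2 and the uncloned culture. The lines did not overlap, the NIH3T3 PGC7 arrays lay slightly above their control, and the B16F10 clones lay on both sides of theirs. The differences were 0.19 ± 0.17 in NIH3T3 and 0.04 ± 0.17 in B16F10 (limma, adjusted p = 0.514 and 0.939), with 95% intervals of -0.20 to 0.57 and -0.34 to 0.43.

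The 5 Zeb2 probe sets did not run the same way in NIH3T3. Probe set 1456389_at read 345 in the control and 420, 419 and 417 in clone 1, clone 2 and the uncloned culture, all above it. Probe set 1458941_at read 209 in the control and 126, 60.4 and 102, all below it, with a difference of -1.11 ± 0.45 that was not called (limma, adjusted p = 0.148). The differences of the 5 ranged from -1.11 to 0.27, and none was called. The transcript regions the probe sets read are not compared here.

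Prrx1, a homeobox gene of limb and craniofacial mesenchyme, had 6 probe sets, of which 5 were tested. Its representative, 1425528_at, read 5023 in the NIH3T3 control and 4204, 4007 and 5538 in clone 1, clone 2 and the uncloned culture. The B16F10 control read 0.659 and its clones 8.01, 2.01 and 4.18. The NIH3T3 control lay between the clones, which were lower, and the uncloned culture, which was higher. The difference of -0.15 ± 0.31 was not called (limma, adjusted p = 0.805). The 5 tested probe sets ranged from -0.59 to 0.28 in NIH3T3, and for 3 of them the clones and the uncloned culture lay on opposite sides of the control.

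In B16F10, where every Prrx1 signal was under 30, 2 Prrx1 probe sets had an unadjusted p under 0.05. They were 1432129_a_at (-0.96 ± 0.38, limma, adjusted p = 0.282) and 1439774_at (-0.87 ± 0.36, adjusted p = 0.297). The representative differed by 0.48 ± 0.31 (adjusted p = 0.526), so the probe sets of this gene did not share a sign at that signal.

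Vim encodes vimentin, the main intermediate filament protein of mesenchymal cells and a common marker of the mesenchymal state. Its probe set 1450641_at read 41055 in the NIH3T3 control and 53452, 49989 and 43186 in clone 1, clone 2 and the uncloned culture. It read 20914 in the B16F10 control and 22252, 24839 and 25683 in clones 1 to 3. All PGC7 arrays lay above the control of their line, and each array of B16F10 lay below each array of NIH3T3. The differences were 0.25 ± 0.13 in NIH3T3 and 0.21 ± 0.13 in B16F10 and were not called (limma, adjusted p = 0.27 and 0.517). Their 95% intervals ran from -0.06 to 0.55 and from -0.10 to 0.52.

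The other 2 Vim probe sets read 26391 (1438118_x_at) and 25124 (1456292_a_at) in the NIH3T3 control and 27837 to 31370 in the NIH3T3 PGC7 arrays, all above their control. In B16F10 they read 22430 and 19846 in the control and 19673 to 24006 in the clones, on both sides of it. Their differences were 0.18 and 0.21 in NIH3T3 and 0.04 and 0.02 in B16F10, and none was called by limma.

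**Figure D3:**
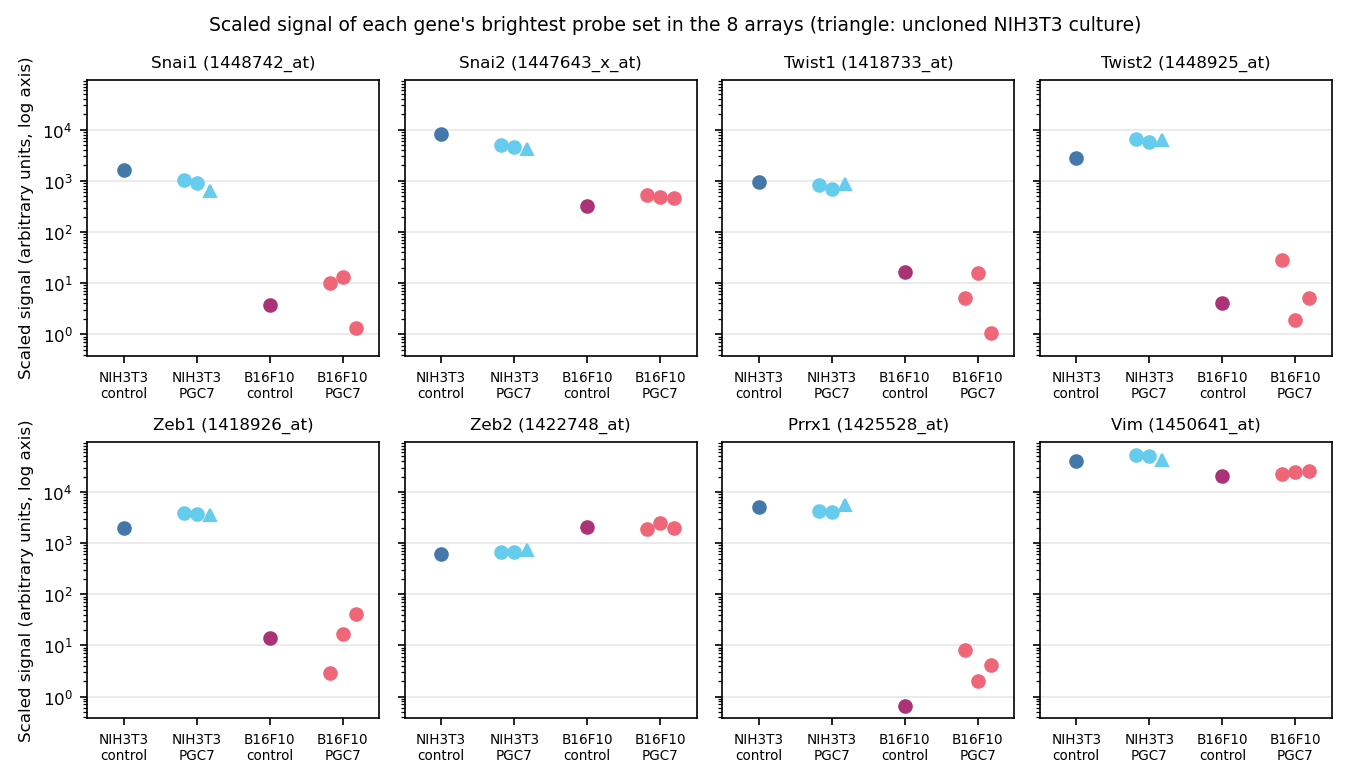
Scaled signal in arbitrary units, on a log axis, of the representative probe set of each of the 8 genes, one point an array in the 4 groups, with a triangle for the uncloned NIH3T3 culture. Snai1, Twist1, Twist2, Zeb1 and Prrx1 lie at or under 40.9 in every B16F10 array and at or above 639 in every NIH3T3 array, Snai2 and Vim are higher in NIH3T3, and Zeb2 is higher in B16F10.

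Between the lines, by representative probe set, Zeb2 gave more signal in B16F10 and the other 7 genes more in NIH3T3. Vim reversed with values as deposited. Over the 3 PGC7 arrays of each line, 15 of 20 probe sets were called higher in NIH3T3 and 4 of 20 lower, beside 40.2% and 30.9% of all tested probe sets. The low-signal filter kept a probe set that passed in either line, so these counts are partly set by the filter. The 10 probe sets of Snai1, Twist1, Twist2, Zeb1 and Prrx1 passed in NIH3T3 alone and all 10 are among the 15. Of all tested probe sets that passed in NIH3T3 alone, 3743 of 4659 were called higher and 0 lower. Of the 9 that passed in both lines, 5 (Snai2 and Vim) were called higher and 3 (Zeb2) lower. Among all tested probe sets that passed in both, 6407 of 18639 were called higher and 6209 lower. The 1 that passed in B16F10 alone (Zeb2) was called lower, as were 1595 of all 1938 such probe sets. Other scalings moved the count of the 20 probe sets to 12 higher and 8 lower with values as deposited. It was 14 and 5 with quantile normalization, and 13 and 5 with spike scaling. The median of all tested probe sets then stood at -1.42, -0.10 and -0.26. The trimmed mean as deposited was 500 in the B16F10 columns and 143 to 189 in the NIH3T3 columns, so cell line and deposited scale cannot be told apart.

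Snai1, Twist1, Twist2, Zeb1 and Prrx1 had B16F10 signals under the median of all signals, so their differences are given as lower bounds, with B16F10 set at that median of 49.3. The NIH3T3 PGC7 arrays were then at least 17.2-fold higher for Snai1, 16.03-fold for Twist1, 125-fold for Twist2, 75.2-fold for Zeb1 1418926_at and 91.9-fold for Prrx1 1425528_at. No order is read from these bounds. Each was called by limma, but these probe sets passed the filter in NIH3T3 alone. The calls are therefore partly set by the filter and are not taken as support. The fitted log2 differences moved with the pseudocount, from 7.19 at a pseudocount of 32 to 9.57 at 1 for Twist2, and from 6.96 to 9.77 for Prrx1.

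Snai2 and Vim were measured in both lines. Snai2 was higher in the NIH3T3 PGC7 arrays by 2.37 ± 0.18 (1418673_at) and 3.22 ± 0.11 (1447643_x_at). For 1418673_at the controls stood at 2262 against 69.7, and the PGC7 means at 813 against 151. Vim 1450641_at was higher by 1.01 ± 0.09 (limma, adjusted p = 2.08e-05), with 0.38 and 0.53 for its other 2 probe sets. With values as deposited all 3 Vim differences reversed (-0.61, -1.24 and -1.09), and 1438118_x_at stood at -0.02 under both quantile normalization and spike scaling.

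Zeb2 was lower in the NIH3T3 PGC7 arrays by 1.58 ± 0.12 (1422748_at, a log2 difference of -1.58, limma, adjusted p = 5.6e-06). Its probe sets 1456389_at, 1434298_at and 1454200_at differed by -1.41, -1.38 and -0.87, and the fifth, 1458941_at, by -0.56 without a call (adjusted p = 0.143). The call of 1454200_at (adjusted p = 0.0241) was lost without NIH3T3 clone 2 and without B16F10 clone 2, among 4 of 15 alternatives, which ranged up to 0.0833.

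**Figure D4:**
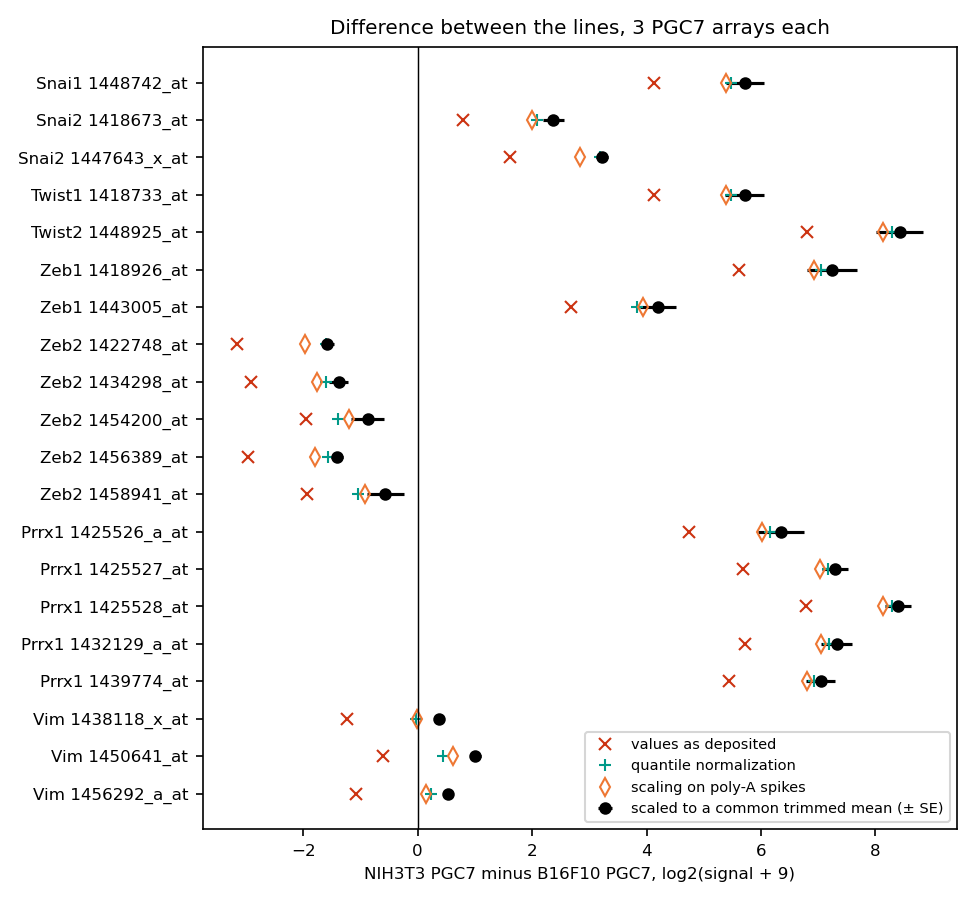
Difference between the NIH3T3 and B16F10 PGC7 arrays in log2(signal + 9) for the 20 tested probe sets, as black points with bars for the standard error of the limma fit, beside the same difference under 3 other scalings. Black points run from -1.58 for Zeb2 1422748_at to 8.42 for Twist2, a size that depends on the pseudocount, with the 5 Zeb2 probe sets below 0, and values as deposited lie lowest for every probe set and put the 3 Vim probe sets below 0 too.

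By level of the representative probe set across the 4 groups, Snai1 and Snai2 had their highest signal in the NIH3T3 control. The NIH3T3 PGC7 arrays followed, with B16F10 below. Twist2, Zeb1 and Vim had their highest signal in the NIH3T3 PGC7 arrays, followed by the NIH3T3 control. For Twist1 and Prrx1 both NIH3T3 groups lay above both B16F10 groups, with no called difference between control and PGC7. For Zeb2 both B16F10 groups lay above both NIH3T3 groups, again with no called difference between control and PGC7. Between control and PGC7 within a line, Snai2 in NIH3T3 was the one pair of neighbours with a called difference, and the called differences between the lines are given above.

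After the mean of each line was removed, the probe sets of other genes with the highest Pearson correlation with each member over the 8 arrays were listed as a description. The points share scaling, arrays and a single control per line. For Snai2 they were Hddc3 (r = 0.996), Pak3 (0.993) and Rab14 (0.992). For Zeb1 they were Col6a3 (0.979), Adarb1 (0.959) and Xylt2 (0.948), and for Twist2 Golph3 (0.981), Adam33 (0.968) and Stom (0.963). For Vim they were Rpl27 (0.994), Cox4i1 (0.986) and Lgals1 (0.985). The closest for the remaining members was Cfap20 for Snai1 (0.974), Kank2 for Twist1 (0.987), Rhbdd3 for Zeb2 (0.968) and Ola1 for Prrx1 (0.960). They were picked as the highest of 25236 probe sets over 8 arrays, and nothing further is read from them.

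Other genes around the 8 were taken from lists by role, with 1 probe set a gene. Over all 11643 genes tested, 7.87% were called higher and 7.35% lower in the NIH3T3 PGC7 arrays, 1.18% and 0.386% in the B16F10 PGC7 arrays, and 36.7% and 36.5% in NIH3T3 against B16F10. Of 28 tested mesenchymal effector genes, which encode matrix, adhesion and contractile proteins, 5 were called higher and 9 lower in NIH3T3. Their median was -0.67, beside -0.04 over all genes. Col1a1, a chain of type I collagen, fell by 5.50 Postn (periostin) fell by 5.50, Cdh11 (cadherin 11) fell by 5.04, and Itgb3 (integrin beta 3) rose by 3.62. Itgb3 was not called with values as deposited, without an intensity trend or with NIH3T3 arrays alone, and Cdh11 was not called in the last of these. The count of risers fell to 1 with values as deposited, and to 3 without NIH3T3 clone 1, NIH3T3 clone 2 or B16F10 clone 3, with 9 lower each time.

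Col1a1 and Postn are also members of the fibroblast marker list, whose sum was lower in the NIH3T3 PGC7 arrays. Not all of that list was lower, as Dcn read 13826 in the control and 16483 to 20066 in the PGC7 arrays. Pdgfra read 6784 and 4882 to 8505. The brighter Col3a1 probe set, used in the sum, read 27079 and 27100 to 31937. A further Col3a1 probe set read 2442 in the control and 1020 to 1546 in the PGC7 arrays, so the Col3a1 probe sets did not run the same way. Summed macrophage markers were 623 in the NIH3T3 control and 916, 1084 and 1229 in the uncloned culture, clone 1 and clone 2. Of that macrophage sum, Cd14 made up 131 in the control and 471 to 578 in the PGC7 arrays. Ptprc (60.6 and 74.8 to 231) and Cd68 (48.0 and 70.1 to 150) also lay above the control in every PGC7 array. Lyz2 (114 and 31.7 to 38.6) lay below it in every one. For Csf1r (163 and 120 to 164) and Fcer1g (40.5 and 6.92 to 65.9) the PGC7 arrays lay on both sides of it. Aif1 read at most 7.04 and Itgam at most 30.2. Summed skeletal muscle markers were 653 in the control and 696 to 2029 in the PGC7 arrays, with Chrna1 at 36.8 and 390 to 1648, and endothelial markers were 440 and 255 to 597. The Gapdh 3′ to 5′ ratio, a sign of RNA quality, was 0.755 in the NIH3T3 control and 0.774 to 0.793 in the PGC7 arrays. The part of these in the Snai2 and matrix gene results was not tested.

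Of 34 epithelial genes measured, 12 were tested, and limma called 0 in either line. At an unadjusted p under 0.05 there were 4 in NIH3T3 and 0 in B16F10, and the share of all genes at that threshold was not counted. Cdh1 (E-cadherin), the best known target of these repressors, read 9.19 in the NIH3T3 control and 3.47, 37.2 and 35.1 in clone 1, clone 2 and the uncloned culture, a difference that was not called (0.69 ± 0.73, adjusted p = 0.585). In B16F10 it read 46.1 in the control and 97.4, 85.7 and 130 in the clones, all above it, and the difference was not called either (1.02 ± 0.73, adjusted p = 0.574). The fitted difference between the lines was -1.93 (NIH3T3 minus B16F10). Every NIH3T3 signal of Cdh1 was under the median of 49.3, so it passed the filter in B16F10 alone. The direction of that difference is therefore partly set by the filter.

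Of 20 other EMT-linked transcription factors tested, 6 were called higher and 1 lower in NIH3T3. Hmga2, a chromatin protein known to induce Snai1 and Twist1, rose by 2.81 (3144 in the control and 24432, 26290 and 16946 in clone 1, clone 2 and the uncloned culture). Fosl1, an AP-1 subunit, rose by 1.52, and Tbx3, a T-box repressor, rose by 2.08. The call of Tbx3 was lost in 7 of 14 alternatives, without either NIH3T3 clone and without B16F10 clone 1 among them, and that of Fosl1 without NIH3T3 clone 2 and with a pseudocount of 1. Id2, an inhibitor of basic helix-loop-helix factors, fell by 3.65. The 6 risers became 4, with 3 lower, on values as deposited, 3 without NIH3T3 clone 2, and 4 without NIH3T3 clone 1 or B16F10 clone 1.

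Of 24 corepressor, cofactor and turnover genes, which include the LSD1 and Polycomb partners of SNAI1, 0 were called higher and 1 lower in NIH3T3. That gene was Ajuba, a LIM protein that binds SNAI1, which fell by 2.15. Of 12 tested relatives and partners of vimentin, Ywhaz rose by 0.77, and Lmnb1 and Plec (plectin, a cross-linker of filaments) fell by 0.67 and 0.61. The calls of Lmnb1 and Plec were lost under spike scaling, and all 3 were lost with NIH3T3 arrays alone.

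Of 21 tested genes of the TGF-beta, Notch and Wnt inputs, 3 were called higher and 4 lower in NIH3T3. Without the uncloned culture 6 were called higher and 5 lower. Leaving out that culture also raised the calls over all 25236 probe sets in NIH3T3 from 3229 to 6133. Tgfb1, a ligand that induces the EMT factors in epithelia, rose by 2.05, the Notch ligand Jag1 fell by 2.30 and the Notch target Hes1 fell by 2.47. Tcf7l2 fell by 1.41, but its call was lost in 10 of 14 alternatives, which included leaving out any one array other than the uncloned NIH3T3 culture.

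In B16F10 the 6 lists gave 1 call, with 0 to 6 genes a list at an unadjusted p under 0.05, where the share of all genes was not counted. Sparc, which encodes the matricellular protein osteonectin, fell by 1.17 (12620 in the control and 5587, 5609 and 5626 in clones 1 to 3, limma, adjusted p = 0.00228). It was not called without an intensity trend (0.0564). Without the uncloned NIH3T3 culture, when 1835 of all 25236 probe sets were called in B16F10, 5 mesenchymal effector genes and 2 cofactor genes were called lower, 2 input genes higher and 1 lower, and 1 of the other factors higher and 1 lower.

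Between the lines, 21 of 28 mesenchymal effector genes were higher and 1 lower in NIH3T3, among them Col3a1 (at least 595-fold higher, with B16F10 set at the median signal), Lox (at least 106-fold) and Tgfbi (at least 61.9-fold). As for the 8 genes, 12 of these 28 passed the filter in NIH3T3 alone and all 12 were called higher. Of the 16 that passed in both lines 9 were higher and 1 lower. Over all tested probe sets the counts were 3743 higher of 4659 in NIH3T3 alone, and 6407 higher and 6209 lower of 18639 in both lines. Of the 20 other EMT-linked factors, 14 were higher, 8 of which had passed in NIH3T3 alone, and 2 lower (8 and 8 with values as deposited), and of the 24 corepressor and cofactor genes 7 were higher and 15 lower (1 and 23). Of 12 epithelial genes 5 were higher and 4 lower (2 and 7). Of the 5, 4 had passed in NIH3T3 alone, and of the 4 lower, 2 had passed in B16F10 alone, Cdh1 among them. Prrx2, the paralogue of Prrx1, was at least 29.4-fold higher in NIH3T3, with B16F10 set at the median signal. Its NIH3T3 control read 4390 and the PGC7 arrays 1772, 1401 and 1223 in clone 1, clone 2 and the uncloned culture.

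**Figure D5:**
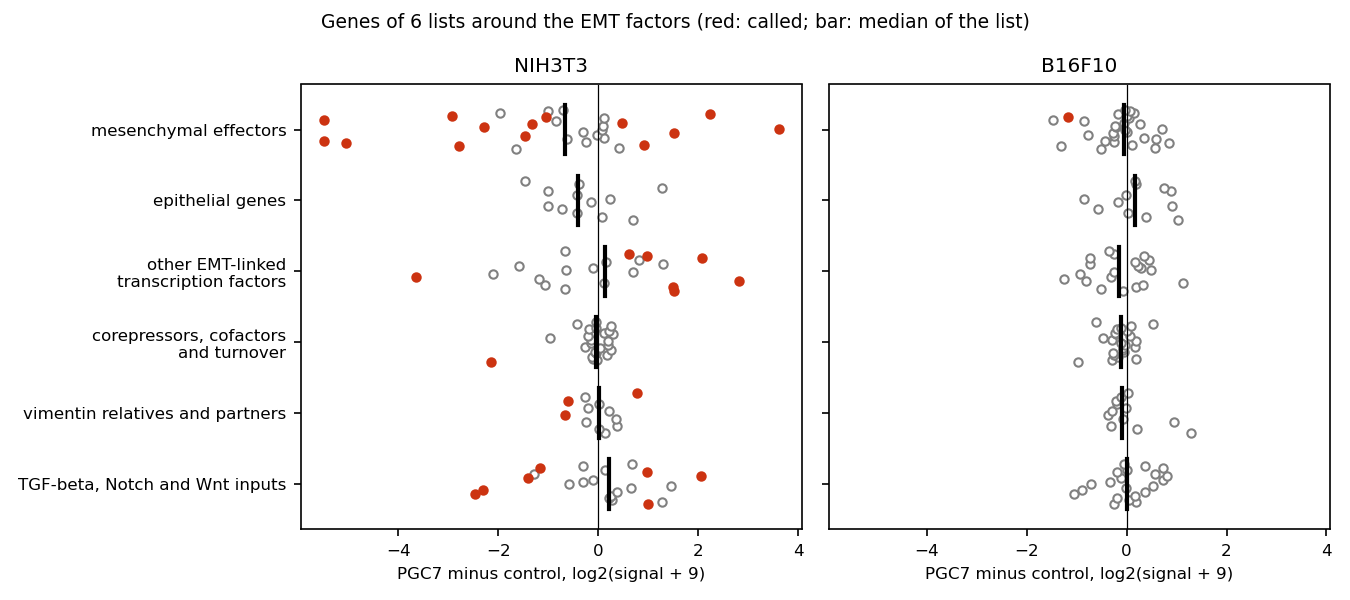
Difference of the PGC7 arrays from the control in log2(signal + 9) of the tested genes of the 6 lists, one point a gene, in NIH3T3 and in B16F10, in red where called, with a bar at the median of each list. The called mesenchymal effectors run from -5.50 to 3.62 in NIH3T3 around a list median of -0.67, and Sparc is the 1 called gene in B16F10.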

How the data were processed

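RNA of 8 mouse cell line samples was measured on 1-colour Affymetrix arrays. The authors deposited probe set signals as linear intensity values, made with MAS5 per the submitters' processing notes, with no version named. As deposited, the trimmed mean was 500 in each B16F10 column and 143 to 189 in NIH3T3. Each column was therefore rescaled here to a 2% trimmed mean of 500. Of 45101 probe sets, 64 controls and 19801 dim ones (mean log2 below the median signal in both lines) were left out. log2(signal + 9) of the other 25236 was fitted with limma 3.58.1 in R 4.3.3 (4 group means, eBayes with an intensity trend, two-sided, Benjamini-Hochberg over all tested). The code was tested on artificial data with planted changes, most but not all of which it called.

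Symbols came from the platform annotation, with 34958 probe sets annotated to 1 symbol, 932 to several and 9211 to none, and were updated for the 34754 matched by gene ID to GRCm38.p6. All probe sets of the 8 genes were reported. A gene's representative was its probe set with the highest mean. From the other lists counts, the up to 4 called genes with the largest change and Cdh1 were named, and 3 like genes a member were sought. Further genes named with marker sums, and Prrx2 in NIH3T3, were chosen after their values were seen. The genes and lists were chosen with earlier results of these data known. Alternatives were other scalings, pseudocounts of 1 and 32, no filter, no trend, each line alone, each PGC7 array left out, additive terms and a replicate block. The replicate numbers of the 2 lines name different cultures and do not pair arrays.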

Additional observations from a re-analysis of the deposited data

Results flagged for a closer look

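The change of Snai2 with PGC7 differed between the lines by the interaction contrast of the limma fit. For 1418673_at the difference, NIH3T3 minus B16F10, was -2.48 (adjusted p = 0.00768), and all 13 alternatives kept the call (0.00217 to 0.0288). For 1447643_x_at it was -1.48 (adjusted p = 0.00814), and 12 of 13 alternatives kept the call. In NIH3T3 3 of 3 PGC7 arrays lay below the control, and in B16F10 3 of 3 lay above it, for both probe sets. No group held the 4 samples needed to look for a single distant array.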

How the results depend on the processing

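With 1 control array a line, a control that stood apart would shift every difference of its line, and this cannot be checked here. Low B16F10 signals limit what can be said of Snai1, Twist1, Twist2, Zeb1 and Prrx1 there. Over 54 results and 771 alternative values, 733 kept their direction and side of the threshold, 7 lost a call, 10 gained one and 21 reversed. The cause was not tested. The number of probe sets called in NIH3T3 was 2 and became 4 with NIH3T3 arrays alone (Twist2 and Zeb1 higher). Over all 25236 probe sets it was 3229 and became 1151. In B16F10 it was 0 and ranged from 0 to 2 when 1 PGC7 array was left out. Under spike scaling the direction split became 1 higher and 1 lower in NIH3T3. For the interaction contrast, the difference of the PGC7 change between the lines, it became 2 higher (both Vim) and 1 lower (Snai2). The median of all tested probe sets was then 0.23 in place of -0.07 in NIH3T3 and -0.46 in place of 0.02 in B16F10. For the interaction contrast that median was 0.68 in place of -0.11. Quantile normalization moved the NIH3T3 median to -0.0019 and values as deposited to -0.19.

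Reversed values were those of differences that had not been called, and of Vim between the lines. In NIH3T3 under spike scaling Twist1 stood at 0.031, Prrx1 1425526_a_at at 0.18, 1425528_at at 0.18 and 1432129_a_at at 0.27. Leaving out 1 array gave Prrx1 1432129_a_at -0.33 to 0.11 and Zeb2 1434298_at -0.033 to 0.20, and the latter stood at -0.057 with values as deposited. In B16F10 Zeb1 1418926_at stood at -0.0037 with quantile normalization, -0.25 with spike scaling and -0.078 with a pseudocount of 1. With 1 array left out it ranged from -0.40 to 0.64, Zeb2 1422748_at from -0.061 to 0.10 and Twist2 from -0.086 to 0.81. Under spike scaling Zeb2 1422748_at stood at -0.46 and Vim 1450641_at at -0.29 in B16F10. Between the lines Vim 1438118_x_at stood at -1.24 as deposited, -0.022 with quantile normalization and -0.015 with spike scaling, 1450641_at at -0.61 as deposited and 1456292_a_at at -1.09 as deposited.

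With a replicate block between the lines, 18 probe sets were called in place of 19 (15 higher and 3 lower). Same-numbered arrays correlated at 0.0092, -0.097 and -0.042 in their deviations from the group means. The labels give these arrays different cultures, and the correlations cannot tell whether they were handled together.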
